A study of Mus musculus with 3 samples.

Results

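Dividing cells of the suprabasal, or intermediate, layer of embryonic mouse skin were set against dividing cells of the basal layer beneath them. Cells were taken as cycling where they held at least 5 UMIs (unique molecular identifiers, each counting 1 captured RNA molecule) of Mki67 and Top2a together. Of these, cells with a summed Krt1, Krt10 and Krtdap level of at least 20 per 10000 UMIs were taken as suprabasal. Cells with a sum below 15 and with less than 2 per 10000 of the placode genes Dkk4, Edar, Fgf20, Bmp2 and Ltb together were taken as basal. The rule gave 135 cycling suprabasal and 482 cycling basal cells among 1601 cells of the total epithelium library, in a series of 4683 cells. The suprabasal cells below 5 UMIs numbered 160 and the basal cells below it 612, and they are called other suprabasal and other basal cells here.

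The epidermis begins as a single basal layer attached to the basement membrane through integrins, and it stratifies by sending daughter cells upward. In the embryo the first suprabasal cells, called intermediate cells, still divide, whereas the spinous cells that follow leave the cell cycle as they differentiate. Notch signalling, the loss of integrin contact and transcription factors such as Trp63, the Grhl family and Ovol1 are known to control this step.

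All cells came from WT embryos of the C57BL/6JOlaHsd strain at E14.5. Dorsal skin epithelium was peeled from the mesenchyme, sheets of 3 to 4 littermates were pooled for each sample, and live cells were sorted and profiled by droplet sequencing of RNA 3′ ends. A library of total epithelium and a pair of placode-enriched libraries were made, the pair from cells sorted for MAdCAM-1, a surface protein of hair placodes. The total epithelium comparison rests on 1 library, cells of 1 library are not replicates, and no p-value was computed. The placode-enriched libraries hold 26 and 18 cycling suprabasal cells and 408 and 467 cycling basal cells by the same rule. These cells had passed the MAdCAM-1 gate, so their values stand beside those of the total epithelium as further readings, not as replicates of it. Intervals given with values are exact 95% intervals and cover counting error only.

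Median depth was 30070 UMIs in cycling suprabasal cells and 27226.5 in cycling basal cells, against 21493 in other suprabasal and 19413 in other basal cells. The ratio of cycling to other cells was 1.40 in both layers. Scrublet called 11 of the 1601 cells as doublets (0.687%), of which 4 were cycling suprabasal, 5 cycling basal and 1 other suprabasal. Libraries shared 1, 1 and 2 cell barcodes.

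The label was checked with layer genes outside the rule. The median keratin sum, which chose the cells, was 85.6 per 10000 UMIs in cycling suprabasal cells and 6.42 in cycling basal cells. Of the rule genes, Krt1 stood at 1993 CPM in cycling suprabasal and 96.7 CPM in cycling basal cells (CPM, UMIs of a gene per 1000000 summed UMIs of a group), Krt10 at 2752 and 165 CPM and Krtdap at 4583 and 411 CPM, while Mki67 stood at 143 and 147 CPM and Top2a at 472 and 491 CPM. Suprabasal identity genes that the rule did not use went with the keratins. Dmkn (dermokine) stood at 2064 CPM in cycling suprabasal cells and 496 CPM in cycling basal cells, Sbsn (suprabasin) at 248 and 33.4 CPM, and the transcription factor Ovol1 at 86.6 and 6.96 CPM. Cnfn and Calml3, late suprabasal markers, did not pass the filter on low values. The 7 basal markers together stood at a median of 2815 CPM per cycling suprabasal cell and 7501 CPM per cycling basal cell, beside 1678 CPM per other suprabasal and 7925 CPM per other basal cell. Cycling suprabasal cells therefore carried both transcript sets, with a summed basal marker level between those of other suprabasal and of basal cells. By gene, Krt5, Krt14, Krt15, Itgb4 and Col17a1 also lay between them. Itga6 (8.31 and 11.7 CPM in cycling and other suprabasal cells) and Trp63 (102 and 115 CPM) were instead lowest in cycling suprabasal cells. The part of background RNA in these basal transcripts was not tested.

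Keratin transcripts were also seen in cells that should lack them. In 21 cells with at least 5 UMIs of the pigment cell genes Dct and Pmel the median keratin sum was 5.29, close to the 6.49 of all 1094 basal cells, so the low keratin sum of basal cells lies at the level of a background. In the gated libraries the median keratin sum was 40.8 and 43.7 in cycling suprabasal cells and 1.12 and 0.831 in cycling basal cells. Of the pigment-marked cells of the total epithelium 13 were counted as cycling basal and 0 as cycling suprabasal.

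**Figure D1:**
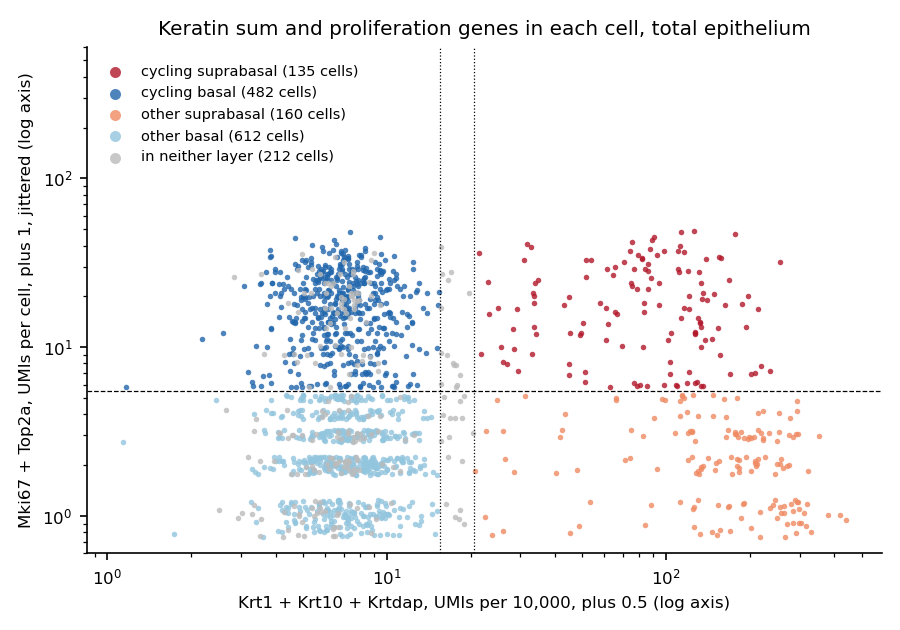
Each point is a cell of the 1601 in total epithelium, with its summed Krt1, Krt10 and Krtdap per 10000 UMIs (plus 0.5, log axis) against its Mki67 and Top2a UMIs (plus 1, log axis). Dotted lines mark keratin sums of 15 and 20 and the dashed line the limit of 5 UMIs: the 135 cycling suprabasal cells fill the upper right, to the right of the 482 cycling basal cells, and become sparse at the highest keratin sums.

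In the total epithelium the share of cells that cycled differed between the layers taken whole by less than its counting error. There 135 of 295 suprabasal cells cycled (45.8%, exact binomial interval 40.0 to 51.6), against 482 of 1094 basal cells (44.1%, 41.1 to 47.1). After thinning every cell to 10000 UMIs and calling cycling at 2 UMIs, the shares were 51.2% of 289 suprabasal and 52.9% of 1011 basal cells, with 10 and 9 shallower cells of these layers left out. Strongly labelled cells were also alike in share, since 25.8% of suprabasal and 26.1% of basal cells held 15 or more UMIs of Mki67 and Top2a. Cells with none made up 18.3% of suprabasal and 15.3% of basal cells. The shares count cells by Mki67 and Top2a only, and cells below the limit also held S phase transcripts. Summed S phase genes stood at a median of 4205 CPM per other basal cell and 1746 CPM per other suprabasal cell. In cycling cells the medians were 5868 CPM in the basal and 5011 CPM in the suprabasal layer. A share that also counted cells by S phase genes was not computed. In the gated libraries the shares were 81.3% of 32 suprabasal (63.6 to 92.8) and 56.2% of 726 basal cells (52.5 to 59.8) in library 1, whose intervals do not overlap. They were 64.3% of 28 suprabasal (44.1 to 81.4) and 59.9% of 780 basal cells (56.3 to 63.3) in library 2.

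Within the suprabasal layer the share was not even. It was 63.8% (30 of 47 cells, 48.5 to 77.3) at keratin sums of 20 to 50 and 78.3% (47 of 60, 65.8 to 87.9) at 50 to 100. It was 44.4% (52 of 117, 35.3 to 53.9) at 100 to 200 and 8.45% (6 of 71, 3.16 to 17.5) at 200 and over. The intervals at 50 to 100 and at 200 and over do not overlap each other, and neither overlaps the 43.3% (40.2 to 46.4) of the 994 cells at 5 to 15. In cells thinned to 10000 UMIs the shares in the same order were 71.2%, 77.2%, 48.3% and 15%, so the peak and the low end were seen at equal depth too. The near equality of the layers taken whole thus covers a higher share in cells of low to middle keratin level and a lower share in those of the highest. In the gated libraries 16 of 17 and 13 of 16 cells at 20 to 50 cycled, 10 of 13 and 5 of 7 at 50 to 100, and 0 of the 2 and 0 of the 5 cells above 100.

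**Figure D2:**
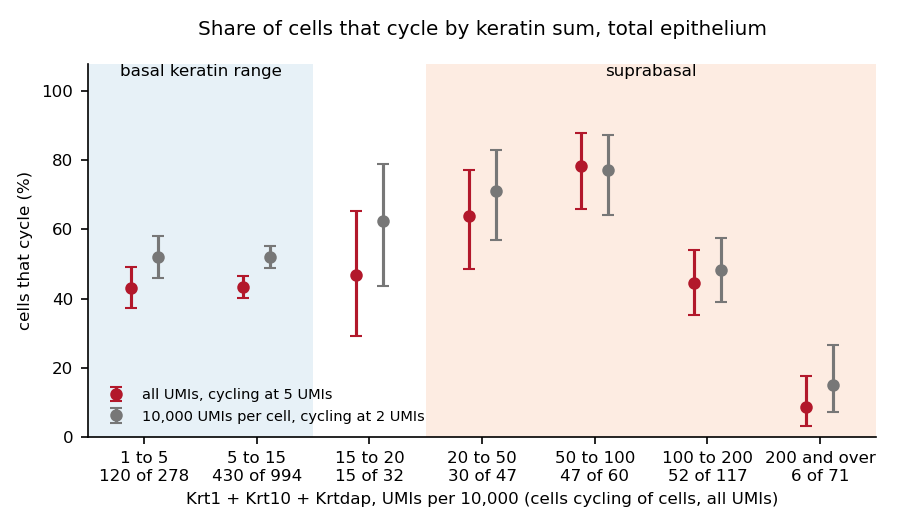
Share of cells with enough Mki67 and Top2a UMIs to be called cycling (y axis, percent) by summed Krt1, Krt10 and Krtdap per 10000 UMIs (x axis, low to high) in the total epithelium library, placode cells included and 2 cells below 1 left out; bars are exact 95% binomial intervals. Shares with all UMIs (red) and with 10000 UMIs per cell (grey) are highest at 50 to 100, at 78.3% and 77.2%, and lowest at 200 and over, at 8.45% and 15%.

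Cells close to the limits of the rule differed by gene. The 5 cycling cells just inside the suprabasal limit, at 20 to 25, held 1557 CPM of Krt5, 1443 CPM of Krt15, 44.5 CPM of Ovol1 and 6.36 CPM of Itga6. The 15 cycling cells just outside, at 15 to 20, held 1909, 2631, 33.4 and 45.3 CPM of these genes, and the 42 cycling basal cells at 10 to 15 held 1848, 2469, 14.2 and 59.5 CPM. Itga6 and Krt15 were thus lower just inside the limit than just outside it, in few cells. At the limit on proliferation genes, the 23 suprabasal cells with 5 or 6 UMIs held 8396 CPM of summed G2 and M phase genes and the 27 with 3 or 4 UMIs held 6405 CPM, so cells just outside carried division transcripts as well.

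Few genes of the division programme passed 2-fold between the layers. Of 60 G2 and M phase genes tested (of 62 in the table; Mki67 and Top2a are not among them) 1 was at least 2-fold higher and 0 were lower in cycling suprabasal cells. Genes were tested where the mean of both groups reached 20 CPM, and a call is a 2-fold ratio after adding 1 CPM. A gene can reach this mean mainly through the group where it is high. Counts and medians of a list that lie in a single direction are therefore in part set by the filter. Across all 5487 genes tested 303 (5.52%) were higher and 225 (4.1%) lower by this rule, 9.62% in all. The median log2 ratio of the G2 and M list was 0.03, the same as the 0.03 over all tested genes, and its summed level was 11263 CPM in cycling suprabasal and 10428 CPM in cycling basal cells (log2 ratio 0.11, interval 0.10 to 0.13). The same sums were 13487 and 11689 CPM in gated library 1 and 13697 and 11389 CPM in gated library 2. Since the cells were chosen by a pair of genes that peak in these phases, equal levels are in part what the rule fixes.

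The 1 gene past 2-fold was Rangap1, which activates the Ran GTPase and sits at kinetochores in mitosis, at 247 CPM in cycling suprabasal cells and 118 CPM in cycling basal cells. In other cells it stood at 193 CPM in the suprabasal and 76.0 CPM in the basal layer, so its layer difference was not limited to cycling cells. The 3 most abundant members did not pass 2-fold. The chromatin protein Hmgb2 stood at 1993 and 1803 CPM in cycling suprabasal and cycling basal cells, the cyclin-dependent kinase subunit Cks2 at 535 and 566 CPM and the tubulin Tubb4b at 896 and 602 CPM.

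Of 50 S phase genes tested (of 52) 0 passed 2-fold in either direction, with a median log2 ratio of -0.09. Their summed level was 5337 CPM in cycling suprabasal and 5623 CPM in cycling basal cells. The largest differences were in Dtl, a ubiquitin ligase adaptor of replication (29.3 and 48.3 CPM), and Chaf1b, a histone chaperone subunit (44.0 and 71.5 CPM). In other cells the S phase sum was 3125 CPM in the suprabasal and 4649 CPM in the basal layer (median -0.53), so cells below the limit held S phase transcripts too, at different levels in the layers. Of 17 histone and chromatin genes tested 0 passed 2-fold (median -0.15). Per cell, the G2 and M list made up a median of 70.8% of the UMIs of both phase lists in cycling suprabasal cells. In cycling basal cells it was 59.0%, with wide quartiles in both (45.2 to 81.4 and 44.9 to 82.3). These medians were 80.8% and 68.7% in gated library 1 and 74.0% and 69.1% in gated library 2. The median phase make-up thus leaned towards G2 and M in cycling suprabasal cells, with quartiles close to those of cycling basal cells in the total epithelium. This was not tested. The lean did not hold in every keratin range. At 20 to 50 the S phase genes summed to 6664 CPM and the G2 and M genes to 9142 CPM, against 5623 and 10428 CPM in cycling basal cells. At 50 to 100, 100 to 200 and 200 and over the S phase sum was 5111, 4836 and 5376 CPM.

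Beside these phase genes the cycling cells carried the genes of their layers. Of the 303 higher genes 279 were also at least 2-fold higher in other suprabasal than in other basal cells, and of the 225 lower genes 216 were also lower there. The higher genes include Krt1, Krt10 and Krtdap of the rule. The same keratin limits set the layers in the other cells and in the gated libraries. Agreement between these counts is therefore in part fixed by the rule. Of all 5487 tested genes 355 were at least 2-fold higher and 334 lower in the other cells. With the filter set on the mean of the other cells instead, 407 (7.6%) of 5358 genes were higher and 307 (5.73%) lower. Of the 303 higher genes 302 were above 0 in both gated libraries and 250 of them at least 2-fold. Of all 5487 tested genes 2317 were above 0 in both and 283 at least 2-fold higher in both. Of the 225 lower genes 221 were below 0 in both and 128 of them at least 2-fold lower. Of all tested genes 1743 were below 0 in both and 154 at least 2-fold lower in both. The gated libraries share their sort and are not replicates of the ungated one.

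**Figure D3:**
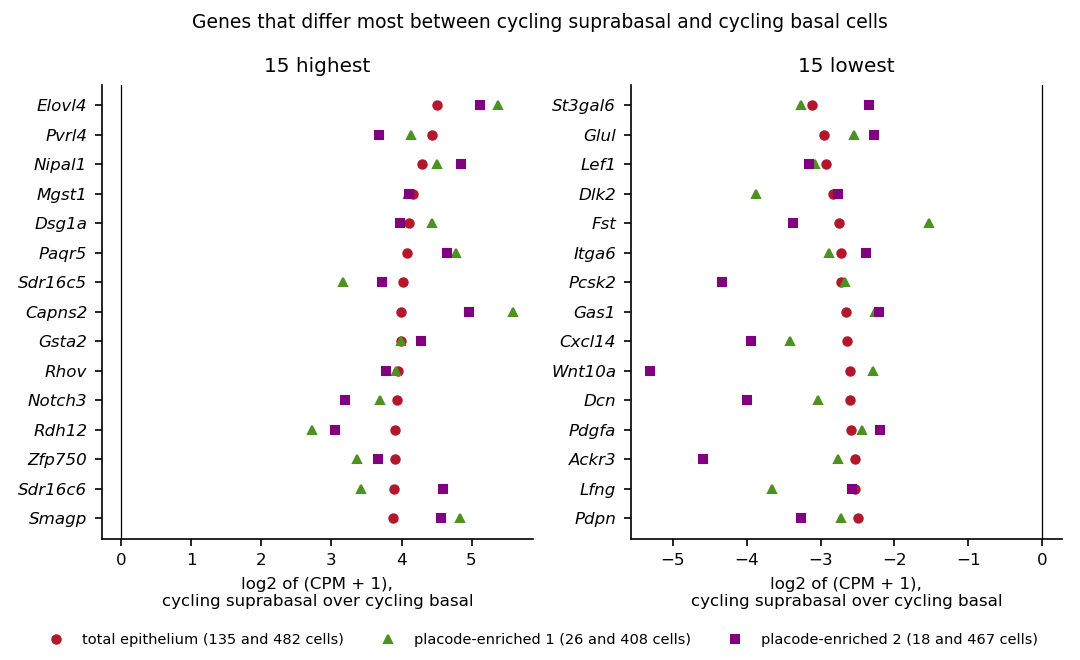
Log2 ratio of CPM plus 1, cycling suprabasal over cycling basal, for the 15 highest and 15 lowest genes of the total epithelium library with the genes of the rule and predicted genes left out (red circles), with the same ratio in placode-enriched libraries 1 (green triangles) and 2 (purple squares). All 15 highest genes lie right of 0 and all 15 lowest left of 0 in the 3 libraries, from 4.51 for Elovl4 to -3.12 for St3gal6 in the total epithelium.

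Regulators of epidermal differentiation were mostly higher. Of 24 tested (of 34 in the table) 14 were higher and 2 lower, with a median log2 ratio of 1.16 in cycling cells and 1.29 in other cells. Zfp750, a transcription factor of terminal differentiation, stood at 141 CPM in cycling suprabasal and 8.46 CPM in cycling basal cells of the total epithelium, at 125 and 11.2 CPM in gated library 1 and at 164 and 12 CPM in gated library 2. Dlx5, a homeobox factor, stood at 63.8 and 3.44 CPM, at 53.8 and 1.08 CPM and at 70.0 and 2.91 CPM in the same order. The grainyhead factors Grhl1 (91.2 and 7.26 CPM in cycling suprabasal and cycling basal cells) and Grhl3 (173 and 17.1 CPM), which control barrier genes, were also far apart. The 2 lower regulators were Trp63, the master factor of the basal state, at 102 and 251 CPM, and Tfap2b at 102 and 242 CPM.

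The Notch list was high together with these. Of 9 members tested (of 19) 6 were higher and 1 lower, with a median of 1.46 in cycling and 1.42 in other cells. The receptor Notch3 (ENSMUSG00000038146.8, minus strand of chromosome 17, 32120820 to 32166852 on GRCm38, protein-coding) stood at 47.4 CPM in cycling suprabasal cells (interval 41.0 to 54.6) and 2.17 CPM in cycling basal cells (1.45 to 3.12), a log2 ratio of 3.93. In the gated libraries it was at 46.3 and 2.66 CPM and at 47.6 and 4.29 CPM. The receptor Notch1 stood at 158 and 49.7 CPM, the target Hes1 at 530 and 161 CPM and the target Nrarp, a feedback inhibitor, at 291 and 37.1 CPM. The lower member was Lfng, a glycosyltransferase that modifies Notch receptors, at 8.80 CPM in cycling suprabasal and 55.9 CPM in cycling basal cells.

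Late differentiation genes were already present in dividing suprabasal cells, at lower levels than in other suprabasal cells, which also had a higher keratin sum (median 85.6 per 10000 UMIs in cycling and 178 in other suprabasal cells). All 16 tested members of the cornified envelope list (of 30 in the table) were higher in cycling suprabasal than in cycling basal cells, with a median log2 ratio of 2.77 in cycling and 3.83 in other cells. Members such as Tgm3 and Alox12 passed the filter mainly through the suprabasal group, so this count is in part set by the filter. The list summed to 6018 CPM in cycling suprabasal, 1398 CPM in cycling basal, 10111 CPM in other suprabasal and 1509 CPM in other basal cells. Within cycling suprabasal cells it summed to 3996 CPM at keratin sums of 20 to 50, 5254 CPM at 50 to 100, 7512 CPM at 100 to 200 and 9873 CPM at 200 and over, and the part of keratin level in the contrast of cycling and other cells was not tested. Elovl4, which makes the very long chain fatty acids of barrier lipids (ENSMUSG00000032262.13, minus strand of chromosome 9, 83778692 to 83806277 on GRCm38, protein-coding), was the highest of all genes named. It stood at 194 CPM in cycling suprabasal (180 to 208) and 7.56 CPM in cycling basal cells (6.16 to 9.19), at 92.6 and 1.25 CPM in gated library 1 and at 53.2 and 0.554 CPM in gated library 2, with 429 CPM in other suprabasal cells. The transglutaminase Tgm3, which cross-links the envelope, stood at 41.8 and 2.55 CPM in cycling suprabasal and cycling basal cells, beside 136 CPM in other suprabasal cells. The lipoxygenase Alox12 stood at 47.4 and 3.15 CPM and the calpain subunit Capns2 at 333 and 19.9 CPM.

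Several other enzymes of lipid and retinoid handling stood among the 15 highest genes, the genes of the rule and predicted genes left out. They were the retinol dehydrogenases Rdh12 (59.2 and 3.00 CPM in cycling suprabasal and cycling basal cells), Sdr16c5 (61.6 and 2.85 CPM) and Sdr16c6 (45.0 and 2.10 CPM). The glutathione transferases Mgst1 (1448 and 79.5 CPM) and Gsta2 (49.4 and 2.17 CPM) were there too, and Gsta2 and the 2 Sdr16c genes belong to families of close copies whose reads the counting could split. The remaining ones included Nipal1, a magnesium transporter (58.0 and 2.02 CPM), Paqr5, a membrane progesterone receptor (90.5 and 4.42 CPM), and Smagp, a small transmembrane protein of adherens contacts (99.8 and 5.84 CPM).

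Promoter sequences are shown for 3 suprabasal genes that lie beside each other on chromosome 7, Krtdap, which is part of the rule, Sbsn and Dmkn, and for the tight junction gene Cldn4, because each holds the AP-1 element, the site bound by Fos and Jun proteins. The sequences are from RefSeq on GRCm38.p6, 5′ to 3′ on the strand of the gene. They are those of Krtdap at chr7:30787655-30787954 (plus strand), Sbsn at chr7:30751221-30751520 (plus), Dmkn at chr7:30776155-30776454 (plus, 1 of its starts in the table) and Cldn4 at chr5:134946885-134947184 (minus). Capitals mark the AP-1 letters TGAGTCA or their reverse complement TGACTCA, which begin at -81, -6 and -82 bases from the start of Krtdap, Sbsn and Dmkn, and occur at 2 places in Cldn4.
Krtdap: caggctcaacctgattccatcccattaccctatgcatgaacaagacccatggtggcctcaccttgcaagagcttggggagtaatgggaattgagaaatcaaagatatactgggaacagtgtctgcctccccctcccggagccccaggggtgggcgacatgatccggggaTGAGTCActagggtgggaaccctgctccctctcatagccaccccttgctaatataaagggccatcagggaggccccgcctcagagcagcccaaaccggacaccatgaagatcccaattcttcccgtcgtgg
Sbsn: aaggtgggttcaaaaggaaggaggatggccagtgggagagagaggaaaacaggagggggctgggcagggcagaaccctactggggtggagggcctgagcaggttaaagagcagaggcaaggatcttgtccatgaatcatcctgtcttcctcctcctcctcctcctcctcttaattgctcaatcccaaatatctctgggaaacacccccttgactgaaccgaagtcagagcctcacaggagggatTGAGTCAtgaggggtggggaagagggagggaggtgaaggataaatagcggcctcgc
Dmkn: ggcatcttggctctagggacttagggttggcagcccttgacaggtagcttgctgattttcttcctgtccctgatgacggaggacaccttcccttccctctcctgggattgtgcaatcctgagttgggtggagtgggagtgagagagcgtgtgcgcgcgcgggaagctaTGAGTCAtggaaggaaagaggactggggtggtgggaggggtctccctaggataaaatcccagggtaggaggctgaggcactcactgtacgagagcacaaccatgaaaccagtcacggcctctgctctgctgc
Cldn4: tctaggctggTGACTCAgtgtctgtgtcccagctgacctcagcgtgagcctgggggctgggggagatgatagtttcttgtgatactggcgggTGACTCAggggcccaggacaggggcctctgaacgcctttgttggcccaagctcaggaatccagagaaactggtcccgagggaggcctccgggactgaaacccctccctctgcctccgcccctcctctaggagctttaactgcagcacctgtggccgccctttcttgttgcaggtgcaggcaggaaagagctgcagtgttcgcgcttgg
Of the 303 higher genes 230 had a promoter window in the table and 28 of these held the element on either strand. So did 176 of the 4465 tested genes with a window (3.94%) and 8 of the 177 lower genes with a window (4.52%). Among all 27025 genes with a window it was 1607 (5.95%). AP-1 was 1 of 13 letter patterns searched and was chosen for display after the counts were seen. With 75.9% of the higher and 81.4% of all tested genes matched, any reading of these shares is void. The windows of the remaining genes are not analysed here. Fos itself, an AP-1 subunit that cell dissociation also induces, stood at 52.6 CPM in cycling suprabasal and 7.04 CPM in cycling basal cells, at 30.0 and 3.99 CPM in gated library 1 and at 40.6 and 3.67 CPM in gated library 2. Of 7 dissociation and stress genes tested 2 were higher, Fos and the small heat shock protein Hspb1 (1469 and 159 CPM), and 0 lower, and the part of dissociation in them was not tested.

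**Figure D4:**
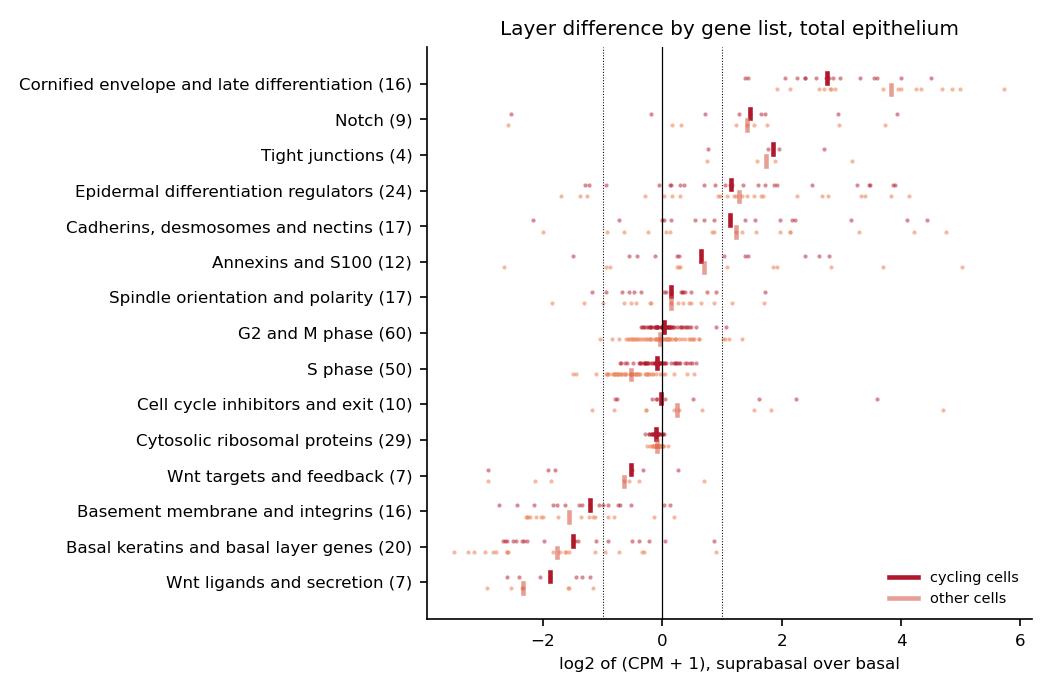
Log2 ratio of CPM plus 1, suprabasal over basal, for each tested member of 15 gene lists (points) with the list's median (bars), in cycling cells (dark red, upper row) and in other cells (light, lower row) of the total epithelium library; the number of tested genes is in brackets and dotted lines mark 2-fold. Medians run from 2.77 for the cornified envelope list to -1.87 for Wnt ligands in cycling cells, with the G2 and M phase list at 0.03.

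Cell to cell junction genes were higher in dividing suprabasal cells. Of 17 cadherin, desmosome and nectin genes tested (of 22) 9 were higher and 1 lower (median 1.13 in cycling, 1.24 in other cells). The nectin Pvrl4, a cell adhesion molecule also called nectin 4, stood at 190 CPM in cycling suprabasal and 7.79 CPM in cycling basal cells, at 273 and 14.6 CPM in gated library 1 and at 241 and 17.9 CPM in gated library 2. The desmosomal cadherins Dsg1a (74.1 and 3.37 CPM) and Dsc3 (141 and 14.8 CPM) and the plaque protein Jup (plakoglobin, 450 and 96.1 CPM) followed, and Dsg1a has close copies among which reads may be split. E-cadherin (Cdh1) stood at 154 and 58.6 CPM. The lower member was P-cadherin (Cdh3), a cadherin of basal and placode cells, at 16.4 CPM in cycling suprabasal and 77.1 CPM in cycling basal cells. Of 4 tight junction genes tested (of 16) 3 were higher, with Ocln (occludin) at 37.2 and 4.87 CPM, Cldn1 at 45.2 and 10.9 CPM and Cldn4 at 135 and 38.9 CPM.

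Genes of contact with the basement membrane were lower. Of 16 basement membrane and integrin genes tested (of 31) 0 were higher and 10 lower (median -1.20 in cycling, -1.56 in other cells). The hemidesmosome integrin Itga6 stood at 8.31 CPM in cycling suprabasal and 60.7 CPM in cycling basal cells, at 6.25 and 52.4 CPM in gated library 1 and at 9.80 and 55.2 CPM in gated library 2. Its partner Itgb4 stood at 13 and 46.1 CPM, the hemidesmosome collagen Col17a1 at 15.4 and 71.3 CPM, the plakin Dst at 19.1 and 107 CPM and the basement membrane collagen Col4a1 at 13.9 and 51.8 CPM. Of 26 actomyosin genes tested 2 were higher and 4 lower, and the lower ones included Zyx (zyxin, a focal adhesion protein, 10.0 and 57.1 CPM) and Cald1 (caldesmon, an actin-binding protein, 56.5 and 309 CPM). Tpm1 and Actn1, lower here at log2 ratios of -1.16 and -1.18, were at -0.25 and -0.15 and at -0.25 and -0.37 in the gated libraries.

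The basal gene set was lower, and Krt5 was the basal keratin nearest to equal. Of 20 basal layer genes tested 0 were higher and 14 lower (median -1.49 in cycling, -1.77 in other cells). The chemokine Cxcl14 stood at 275 CPM in cycling suprabasal and 1718 CPM in cycling basal cells and the membrane protein Gas1 at 43.3 and 279 CPM. The proteoglycan Dcn, also on the list of fibroblast markers, stood at 78.0 and 478 CPM. Krt15 stood at 837 and 2316 CPM and Krt14 at 1418 and 3075 CPM. Krt5, the partner of Krt14 in basal keratin filaments, did not pass 2-fold, at 1215 and 1595 CPM in the total epithelium (log2 ratio -0.39), and it lay on the other side in the gated libraries, at 1607 and 1157 CPM and at 1791 and 1106 CPM. St3gal6, a sialyltransferase and the lowest of the genes named, stood at 3.91 and 41.7 CPM, Glul (glutamine synthetase) at 7.34 and 63.7 CPM and Pdgfa, a growth factor sent to the dermis, at 83.4 and 508 CPM.

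The Wnt ligand genes that were tested were low. All 7 Wnt ligand and secretion genes tested (of 15 in the table) were lower, with a median log2 ratio of -1.87 in cycling and -2.33 in other cells. Members such as Wnt16 (9.29 and 36.7 CPM) passed the filter mainly through the basal group, so this count is in part set by the filter. Wnt6 stood at 71.7 CPM in cycling suprabasal and 384 CPM in cycling basal cells, Wnt3 at 17.9 and 77.1 CPM and Wnt10a at 9.29 and 61.7 CPM. Lef1, the transcription factor of Wnt signalling (ENSMUSG00000027985.14, plus strand of chromosome 3, 131110471 to 131224356 on GRCm38, protein-coding), stood at 22.5 CPM in cycling suprabasal (18.1 to 27.6) and 178 CPM in cycling basal cells (170.5 to 185), at 21.3 and 187 CPM in gated library 1 and at 16.8 and 158 CPM in gated library 2. Of 7 Wnt target and feedback genes tested 0 were higher and 3 lower, and the target Axin2 stood at 28.4 and 23.5 CPM.

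Some basal layer genes stood at similar low levels in cycling and in other suprabasal cells. Wnt6 was at 71.7 CPM in cycling suprabasal and 69.7 CPM in other suprabasal cells, Lef1 at 22.5 and 24.5 CPM, Dlk2 at 4.89 and 4.49 CPM and Itga6 at 8.31 and 11.7 CPM. Others were higher in cycling than in other suprabasal cells, with Gas1 at 43.3 and 24.2 CPM, Pdgfa at 83.4 and 49.6 CPM and Krt14 at 1418 and 1052 CPM. The whole basal layer list summed to 6064 CPM in cycling suprabasal and 4821 CPM in other suprabasal cells. With the called doublets left out the counts over all genes were 312 higher and 229 lower. This took out only 4 of the 135 cycling suprabasal cells, and the part of doublets that were not called in the basal transcripts was not tested.

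Among inhibitors of the cell cycle Cdkn1a stood furthest apart. Cdkn1a, the inhibitor p21 (ENSMUSG00000023067.14, plus strand of chromosome 17, 29090976 to 29100727 on GRCm38, protein-coding), stood at 62.8 CPM in cycling suprabasal (55.4 to 71.0) and 4.27 CPM in cycling basal cells (3.23 to 5.53), a log2 ratio of 3.60. It stood at 38.8 and 5.15 CPM in gated library 1 and at 44.8 and 3.39 CPM in gated library 2, and at 135 CPM in other suprabasal and 4.27 CPM in other basal cells. The transcript of this inhibitor was thus carried by dividing suprabasal cells at a level between those of cycling basal and other suprabasal cells. Of 10 inhibitors tested (of 21) 3 were higher and 0 lower, with a median of -0.02. The other 2 were Tob1, an antiproliferative protein (74.8 and 15.1 CPM), and Sfn (stratifin, 14-3-3 sigma, 2236 and 723 CPM), and Cdkn1c, the inhibitor p57, stood at 86.8 and 152 CPM.

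Ccnd2 (cyclin D2), which drives entry into the cycle, stood at 207 CPM in cycling suprabasal and 632 CPM in cycling basal cells, at 153 and 725 CPM in gated library 1 and at 151 and 653 CPM in gated library 2. Ccnd1 (cyclin D1) stood at 14.7 and 32.0 CPM in the total epithelium, but at 113 and 43.9 CPM and at 78.4 and 47.8 CPM in the gated libraries, so its direction differed between the total epithelium and the gated cells. Of 14 cyclin D and growth genes tested (of 27) 4 were higher and 3 lower. The higher ones were the Myc relative Mycl (70.9 and 17.7 CPM), the receptors Erbb2 (69.2 and 26.6 CPM) and Erbb3 (29.8 and 11.2 CPM) and the growth factor Igf2 (241 and 107 CPM), and the other lower one, beside the cyclins, was the receptor Fgfr2 (47.7 and 136 CPM).

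Cycling cells were then laid out by keratin sum, from the 482 cycling basal cells over the 30, 47 and 52 cycling suprabasal cells at 20 to 50, 50 to 100 and 100 to 200 to the 6 cells at 200 and over. Their median depths were 27226.5, 26651.5, 32776, 30073 and 25854 UMIs. The bins use the 3 keratin genes of the rule, so the course of other genes along them is a description. Some genes were already near their full suprabasal level in the lowest keratin range. Zfp750 stood at 8.46, 148, 151, 127 and 144 CPM in this order, Notch3 at 2.17, 43.3, 45.6, 49.7 and 68.2 CPM and Pvrl4 at 7.79, 158, 212, 184 and 212 CPM. Ovol1 (6.96, 92.5, 86.5, 85.6 and 60.7 CPM) and Grhl3 (17.1, 197, 197, 138 and 159 CPM) were not higher in later ranges than in the first.

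Barrier genes followed the keratin sum instead. Elovl4 stood at 7.56, 53.9, 162, 272 and 523 CPM in the same order and Capns2 at 19.9, 126, 277, 466 and 690 CPM. Tgm3, at 2.55, 2.34, 9.25, 83.1 and 174 CPM, was not above the cycling basal level before the range of 50 to 100. Hspb1 stood at 159, 395, 824, 2478 and 3685 CPM and Cdkn1a at 4.27, 42.2, 44.9, 84.3 and 144 CPM.

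On the basal side, St3gal6 (41.7, 2.34, 2.64, 6.29 and 0 CPM) and Lef1 (178, 32.8, 23.8, 17.0 and 7.58 CPM) were low from the first range on, and Wnt6 stood at 384, 137, 51.5, 56.6 and 60.7 CPM. Basal keratins and Ccnd2 were not. Krt5 stood at 1595, 1683, 1350, 912 and 281 CPM, Krt14 at 3075, 2610, 1438, 835 and 493 CPM and Ccnd2 at 632, 493, 184, 91.2 and 7.58 CPM. Krt15 stood at 2316 CPM in cycling basal cells, 1466 CPM at 20 to 50 and 932 CPM at 50 to 100. Cells at 20 to 50 thus held Krt5 at the level of cycling basal cells and Notch3 and Zfp750 at that of later suprabasal ones. The summed G2 and M phase genes ran at 10428, 9142, 11598, 12079 and 11314 CPM and showed no steady course.

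**Figure D5:**
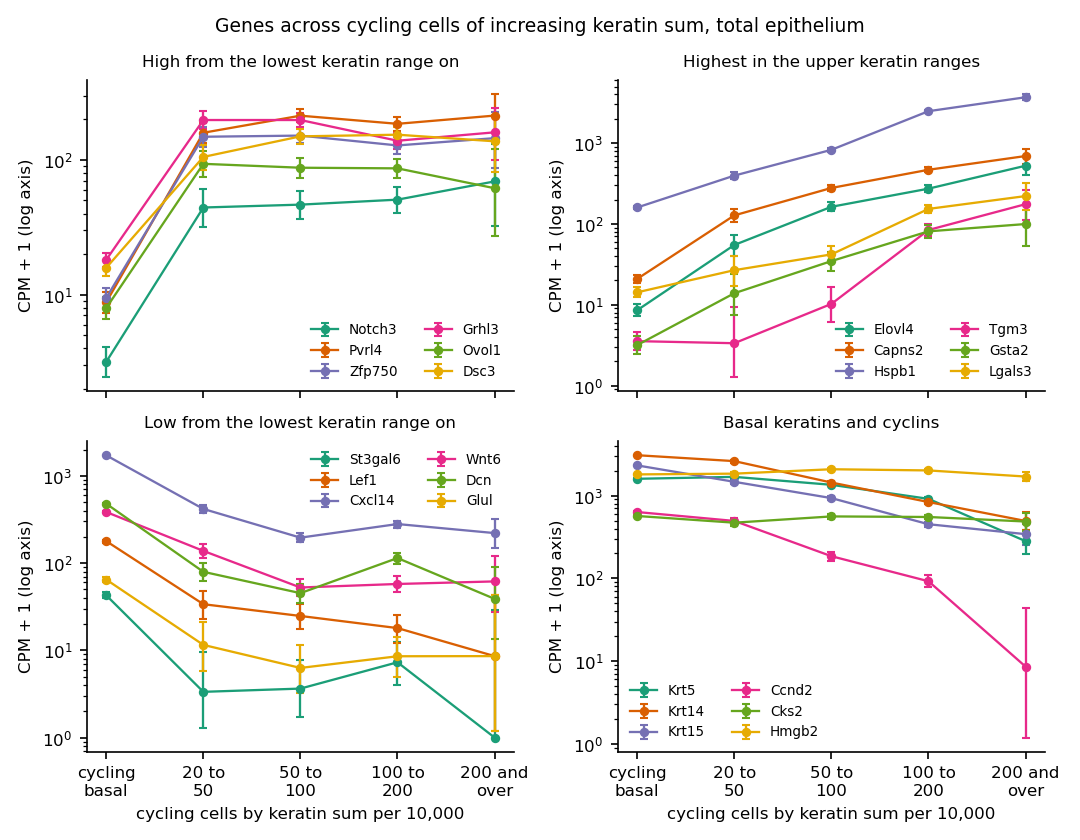
CPM plus 1 (log axis) of 24 genes in cycling cells of the total epithelium library, in order of summed Krt1, Krt10 and Krtdap per 10000 UMIs (x axis; 482, 30, 47, 52 and 6 cells); bars are exact 95% Poisson intervals. Notch3, Pvrl4, Zfp750 and Ovol1 are high from 20 to 50 on, Elovl4 and Tgm3 are highest at 200 and over, Lef1 and St3gal6 are low from 20 to 50 on, and Krt5 and Ccnd2 are lowest at 200 and over while Cks2 and Hmgb2 stay level.

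Other gene groups and cell types complete the comparison. Of 17 spindle orientation and polarity genes tested (of 23) 1 was higher, the membrane linker Ezr (ezrin, 282 and 85.3 CPM in cycling suprabasal and cycling basal cells), and 1 lower, the planar polarity cadherin Celsr1 (20.8 and 48.4 CPM), and Gpsm2, which orients the spindle, stood at 79.5 and 71.4 CPM. Of 29 cytosolic ribosomal protein genes 0 passed 2-fold (median -0.10). Of 12 annexin, S100 and galectin genes 6 were higher and 1 lower, with S100a14 at 287 and 40.7 CPM and Anxa6 lower at 13 and 38.3 CPM. Of 16 glycolysis and hypoxia genes 0 were higher and 3 lower, Bnip3, Ndrg1 and P4ha1, with P4ha1, a collagen hydroxylase, at 16.6 and 46.6 CPM. All 4 Eda and placode genes tested (of 25 in the table) were lower, and the placode limit of the rule held for basal cells only. Of 8 Bmp and Tgfb genes 1 was higher, Id2 (92.7 and 18.6 CPM), and 2 lower, Id3 (80.2 and 227 CPM) and Fst (14.2 and 101 CPM). Both Hedgehog genes tested (of 12 in the table), Gas1 and Ptch1, were lower, and Ptch1 (10.5 and 31.5 CPM) passed the filter mainly through the basal group.

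Markers of other cell types differed in level. The 9 periderm markers in the table summed to 208 CPM in cycling suprabasal and 32.9 CPM in cycling basal cells, of which Grhl3, also an epidermal factor, made up 173 and 17.1 CPM, and it was the 1 member tested. Of 7 fibroblast markers 2 were tested, Dcn and Postn, and the list summed to 304 and 762 CPM. Dcn made up 78.0 and 478 CPM of this and was detected in 97.9% of cycling basal cells, and its source was not tested. The 5 melanoblast markers summed to 4.65 and 82.1 CPM, and 13 pigment-marked cells lay among the cycling basal cells. The single immune marker in the table was at 0 in cycling suprabasal and 0.225 CPM in cycling basal cells, the single Merkel marker at 0 and 0.0749 CPM, the 2 muscle markers at 0.489 and 0.300 CPM, the 2 endothelial markers at 18.8 and 34.1 CPM and the 4 erythroid markers at 8.80 and 1.20 CPM. With all cells that held 5 or more UMIs of melanoblast, immune, endothelial, erythroid and muscle markers left out, 132 cycling suprabasal and 459 cycling basal cells gave 297 higher and 225 lower genes.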

How the data were processed

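Per the submitters' processing notes, reads were handled with Cell Ranger and Seurat on mm10, and no version is given in the sources used here. Per the labels, single cells were captured with a droplet 3′ kit. The authors deposited raw UMI counts per gene and cell: 1 table of total epithelium and 1 of both placode-enriched libraries, whose barcode suffix was taken as the library. No cell was removed here. Cells had 5857 to 57074 UMIs in the total epithelium, and the median depth of the 3 libraries was 21977, 21652 and 23419. Members and gene lists were chosen with earlier results of these data known, so counts over them are descriptions.

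UMIs were summed over the cells of a group and scaled to CPM over all genes. Genes with a mean of at least 20 CPM over both groups were tested, and the ratio log2(CPM + 1) was called at 2-fold, with no count model and no p-value, since a single library makes up each group. Sums have exact Poisson and shares exact Clopper-Pearson intervals (scipy 1.17.1), for counting error only. Thinning drew 10000 UMIs per cell without replacement. Doublets were scored with Scrublet in scanpy 1.11.5. The calls were tested on simulated sums with known folds. Genes are named by this rule: the 15 highest and 15 lowest ratios without the genes of the rule and predicted genes, up to 4 members past 2-fold each way per list, the 3 most abundant members of the cell cycle lists, and 10 fixed genes; other genes named (Cdh1, Axin2, Dtl, Chaf1b, Gpsm2, Krt17 and Myc) were chosen after their values were seen. Gene positions are from GENCODE M21. Alternatives changed the limits, filters, scaling, pseudocount, doublets and library. TMM factors came from edgeR 4.0.16.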

Additional observations from a re-analysis of the deposited data

Results flagged for a closer look

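Ccnd1 had opposite directions in the total epithelium and in the gated cells. Its log2 ratio of cycling suprabasal over cycling basal cells was -1.07 in the total epithelium library, with 14.7 and 32.0 CPM, and 1.34 and 0.70 in placode-enriched libraries 1 and 2, with 113 and 43.9 CPM and 78.4 and 47.8 CPM. The difference was not tested. The gated cycling suprabasal cells had lower keratin sums, with medians of 40.8 and 43.7 per 10000 UMIs against 85.6 in the total epithelium, and in the total epithelium Ccnd1 stood at 37.5 CPM in cycling cells at 20 to 50, 11.9 CPM at 50 to 100 and 5.66 CPM at 100 to 200, beside 32.0 CPM in cycling basal cells. The gate and the small numbers of 26 and 18 cells cannot be told apart from the library here.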

How the results depend on the processing

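No paired analysis was possible because the comparison lies within 1 library and has no test. The limits set the shares. Suprabasal and basal cells cycled at 54.9% and 55.9% with a limit of 3 UMIs, and at 33.6% and 34.0% with 10 UMIs. At 10 UMIs the share was 61.7% at keratin sums of 50 to 100 and 2.82% at 200 and over. The thinned basal share was 52.9%. In placode-enriched library 1 the shares were 81.3% and 56.2%, in library 2 64.3% and 59.9%, and both had 0% at 200 and over, in 1 cell each. Counts of higher and lower genes were 552 and 575 with a filter of 5 CPM, 150 and 94 with 50 CPM, and 782 and 1044 with no filter; in the other 18 alternatives they lay within 1.5 times of 303 and 225. The log2 ratio of the G2 and M sum was 0.13 with a limit of 3 UMIs, 0.072 with 10 UMIs, 0.18 with suprabasal cells from a keratin sum of 50, 0.14 with basal cells below 5, 0.042 without cells over 40000 UMIs, and 0.21 and 0.27 in the gated libraries. The share of higher genes that were also higher in other cells was 92.1%, and 69.3% and 74.1% in the gated libraries. The gated values rest on 6 and 10 other suprabasal cells, against 160 in the total epithelium. Of the 94 named genes past 2-fold, 93 kept their direction in each gated library, and the exception was Ccnd1, at 1.34 and 0.70. All 94 kept their direction in the other 16 alternatives that apply to them. The scaling by TMM or without keratins left the median of all genes within 0.1 of 0. With 135 cells and 1 library, differences between embryos were not measured, and genes below 20 CPM were not called.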

Other observations

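A few genes had a layer difference in cycling cells that was not seen to the same extent in other cells. They were picked after their values were seen, and the differences between the cell classes were not tested. Krt17, a keratin of appendage and stressed epithelium, stood at 659 CPM in cycling suprabasal and 195 CPM in cycling basal cells (log2 ratio 1.75), beside 302 CPM in other suprabasal and 192 CPM in other basal cells (0.65). In the gated libraries Krt17 stood at 4061 and 608 CPM and at 2277 and 573 CPM in cycling suprabasal and cycling basal cells. Myc, a growth regulator, stood at 81.2 and 47.9 CPM in cycling suprabasal and cycling basal cells (0.75), with a ratio of -0.37 in other cells and of 0.85 and 0.40 in cycling cells of the gated libraries. Neither Myc nor Sox9 (16.9 and 8.09 CPM, a ratio of 0.98, and -0.24 in other cells) passed the rule for a call, and Sox9 was below the filter on low values. Among cycling suprabasal cells Sox9 stood at 36.3 CPM at keratin sums of 20 to 50 and 13.9 CPM at 50 to 100. Cycling and other suprabasal cells differed in keratin sum, and its part in these contrasts was not tested.

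Between suprabasal cells, galectin-3 (Lgals3) stood at 86.8 CPM in cycling and 421 CPM in other cells, and the heat shock protein Hspb1 at 1469 and 3027 CPM. The median keratin sum was 85.6 in the cycling and 178 in the other cells, and among cycling suprabasal cells Lgals3 stood at 25.8, 40.9, 152 and 219.9 CPM from the lowest to the highest keratin range.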
